A study of Mus musculus with 9 samples.

Results

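The urea cycle enzymes and their mitochondrial carriers are described here in liver RNA of offspring conceived naturally, by in vitro fertilization, or from frozen and thawed embryos. The 7 genes described were taken by name: Nags, Cps1, Otc, Ass1 and Asl for the enzymes, and Slc25a15 and Slc25a13 for the carriers. The comparisons ask how these genes differ in the adult liver by mode of conception. They are 7 of the 55335 genes in the deposited table and 7 of the 6755 genes that passed a filter on low values, a mean FPKM (fragments scaled to gene length and library size) of at least 1 over all 9 mice, so none of them was lost to that filter. All 7 were above 0 in every mouse.

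The livers came from 9 male offspring of the B6D2F2 strain, 3 in each of 3 groups, that were 20 weeks old, ate chow and had been fasted for 4 h. NC-chow mice (numbers 1, 5 and 6) were conceived naturally and their embryos were not transferred. IVF-chow mice (2, 3 and 4) came from embryos made by in vitro fertilization and transferred at the 2-cell stage to pseudopregnant ICR females. FET-chow mice (2, 3 and 4) came from in vitro fertilized embryos that were slowly frozen and thawed before the same transfer. The parents of every group were B6D2F1/J, so the offspring are a segregating cross and not an inbred strain. Strain, age and tissue are given by the sample labels, while diet and sex come from the study's title and methods. The transfer to a foster mother of another strain, superovulation and culture go together with IVF and FET in this design, so their parts cannot be told apart.

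The urea cycle turns the ammonia set free by amino acid breakdown into urea, and the liver is the main organ that runs it in full. Inside the mitochondria of hepatocytes, Nags makes N-acetylglutamate, the obligatory activator of Cps1. Cps1 then builds carbamoyl phosphate from ammonia and bicarbonate, and Otc joins it to ornithine to give citrulline. In the cytosol, Ass1 condenses citrulline with aspartate, and Asl splits the product into fumarate and arginine, from which urea is formed. Slc25a15 carries ornithine into and citrulline out of the mitochondria, and Slc25a13 (citrin) exports the aspartate that Ass1 uses. The whole set is highest in the hepatocytes around the portal vein.

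Positions are those of the GENCODE vM21 annotation of the mouse build GRCm38. Nags (ENSMUSG00000048217) spans chr11:102145513-102149477 on the plus strand, and its longest coding transcript has 7 exons and 2028 bases. Cps1 (ENSMUSG00000025991) has the longest such transcript, with 38 exons and 5555 bases, and lies at chr1:67123026-67231259 on the plus strand. Otc (ENSMUSG00000031173) is X-linked, at chrX:10252305-10321024 on the plus strand, with 10 exons and 2997 bases. Ass1 (ENSMUSG00000076441) lies at chr2:31470207-31520672 on the plus strand with 16 exons and 1696 bases. Asl (ENSMUSG00000025533) lies at chr5:130011258-130029247 on the minus strand, also with 16 exons, and 2413 bases. The carriers Slc25a15 (ENSMUSG00000031482, chr8:22375551-22398597, 7 exons, 3430 bases) and Slc25a13 (ENSMUSG00000015112, chr6:6041218-6217173, 18 exons, 3121 bases) are both on the minus strand. Nags shares 443 exon bases with the antisense gene Gm11586, which was listed at 0 in all 9 mice. No other gene shares exon bases with a member.

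The starts of Nags, Ass1 and Otc are shown, since on deposited FPKM the members rose and fell with each other and with most genes from mouse to mouse, though less so after rescaling, as described further on. Each sequence holds 250 bases before and 50 bases after the RefSeq start on GRCm38.p6, 5′ to 3′ on the plus strand of the gene, and capitals mark matches to the letters GGGCGG (the GC box) on either strand. Nags is at chr11:102145263-102145562, Ass1 at chr2:31470020-31470319 and Otc at chrX:10252055-10252354.
Nags: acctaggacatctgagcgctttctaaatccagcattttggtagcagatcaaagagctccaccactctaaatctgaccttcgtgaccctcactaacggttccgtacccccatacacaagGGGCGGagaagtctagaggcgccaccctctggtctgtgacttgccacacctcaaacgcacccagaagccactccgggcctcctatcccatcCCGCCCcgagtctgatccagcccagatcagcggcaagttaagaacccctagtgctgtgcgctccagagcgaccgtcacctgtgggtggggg
Ass1: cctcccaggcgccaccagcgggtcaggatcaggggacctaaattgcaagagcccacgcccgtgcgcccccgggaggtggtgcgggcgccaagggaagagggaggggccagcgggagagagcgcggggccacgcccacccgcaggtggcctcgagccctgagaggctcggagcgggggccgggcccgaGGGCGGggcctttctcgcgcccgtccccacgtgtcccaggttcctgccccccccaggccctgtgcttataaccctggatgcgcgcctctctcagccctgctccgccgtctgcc
Otc: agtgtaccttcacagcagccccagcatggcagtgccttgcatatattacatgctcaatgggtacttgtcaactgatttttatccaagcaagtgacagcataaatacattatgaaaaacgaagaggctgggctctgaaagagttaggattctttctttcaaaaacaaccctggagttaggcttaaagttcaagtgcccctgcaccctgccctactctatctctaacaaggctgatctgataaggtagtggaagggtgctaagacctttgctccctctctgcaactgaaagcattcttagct
The RefSeq promoter table used here was matched for 5 of the 7 members, with 2 start regions for Slc25a15. The GC box stood in those of Nags, Ass1 and Slc25a15 and in 35.7% of the 32851 promoters of the same length. In Nags it lay 132 bases before the start on the plus strand and 41 bases before it in the reverse reading, and in Ass1 63 bases before the start. The RefSeq start of Ass1 lies 63 bases inside the GENCODE gene span given above, so this GC box begins at the GENCODE start. A CCAAT box (CCAAT, in 37.4% of promoters) was found in Slc25a13 alone. In none of these 5 genes did either strand hold the letters of a TATA box (TATAAA, 13.6% of promoters), a cAMP response element (TGACGTCA, 1.79%), a C/EBP site (TTGCNNAA, 10.8%), an HNF4 site (CAAAGTCCA, 0.475%) or the glucocorticoid receptor motif TGTTCT (19.0%). The Otc window held no letters of any motif searched, the HNF1 site included, which 0.00913% of promoters hold. These motifs do not overlap each other in the sequences shown.

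The depth behind the values differed between groups. Low FPKM values rise in steps of 1 fragment, and from these steps the NC-chow libraries held an estimated 6600000 to 13370000 mapped fragments, the IVF-chow libraries 3900000 to 8440000 and the FET-chow libraries 2020000 to 2940000. Only 4.36% to 29.3% of the summed FPKM of a library lay on nuclear protein-coding genes, and 3 ribosomal and related RNA entries took 3.49% to 61.9%. FPKM of a member therefore also moves with these shares, so each level is also given as rescaled FPKM, for which the FPKM of all nuclear protein-coding genes is made to sum to 1000000 in each mouse. Estimated fragments were 124 to 3557 for Cps1, 154 to 4767 for Ass1 and 75.1 to 1517 for Asl. For Nags they were 2.2 to 241, the lowest being FET-chow mouse 4 with 2.2 and NC-chow mouse 1 with 5.2, so that counting error alone is large for this gene in those mice. Nothing in the labels says that the mice of a group came from separate litters, and p-values measure the spread between these mice.

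Within every mouse the 7 genes kept a broad order by FPKM, which is per length and so can be compared between genes. Ass1 was the highest in 8 mice and Otc in NC-chow mouse 1, and the 4 enzymes Ass1, Cps1, Otc and Asl took the first 4 places in each. The carriers and Nags took the last 3 places, with Nags lowest in 8 mice and Slc25a15 in NC-chow mouse 5. Ass1 ranked between place 64 and 308 among nuclear protein-coding genes by FPKM, Otc between 238 and 479, and Nags between 1495 and 7648. In NC-chow mice the mean level was 158 ± 104 FPKM (SD, n = 3) for Ass1. Otc (46.9 ± 2.99), Cps1 (40.8 ± 17.2) and Asl (36.2 ± 22.8) followed, and these neighbours lay within their spread of each other. Slc25a13 (8.90 ± 2.15), Slc25a15 (8.24 ± 4.41) and Nags (5.26 ± 4.38) were lowest and overlapped.

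**Figure D1:**
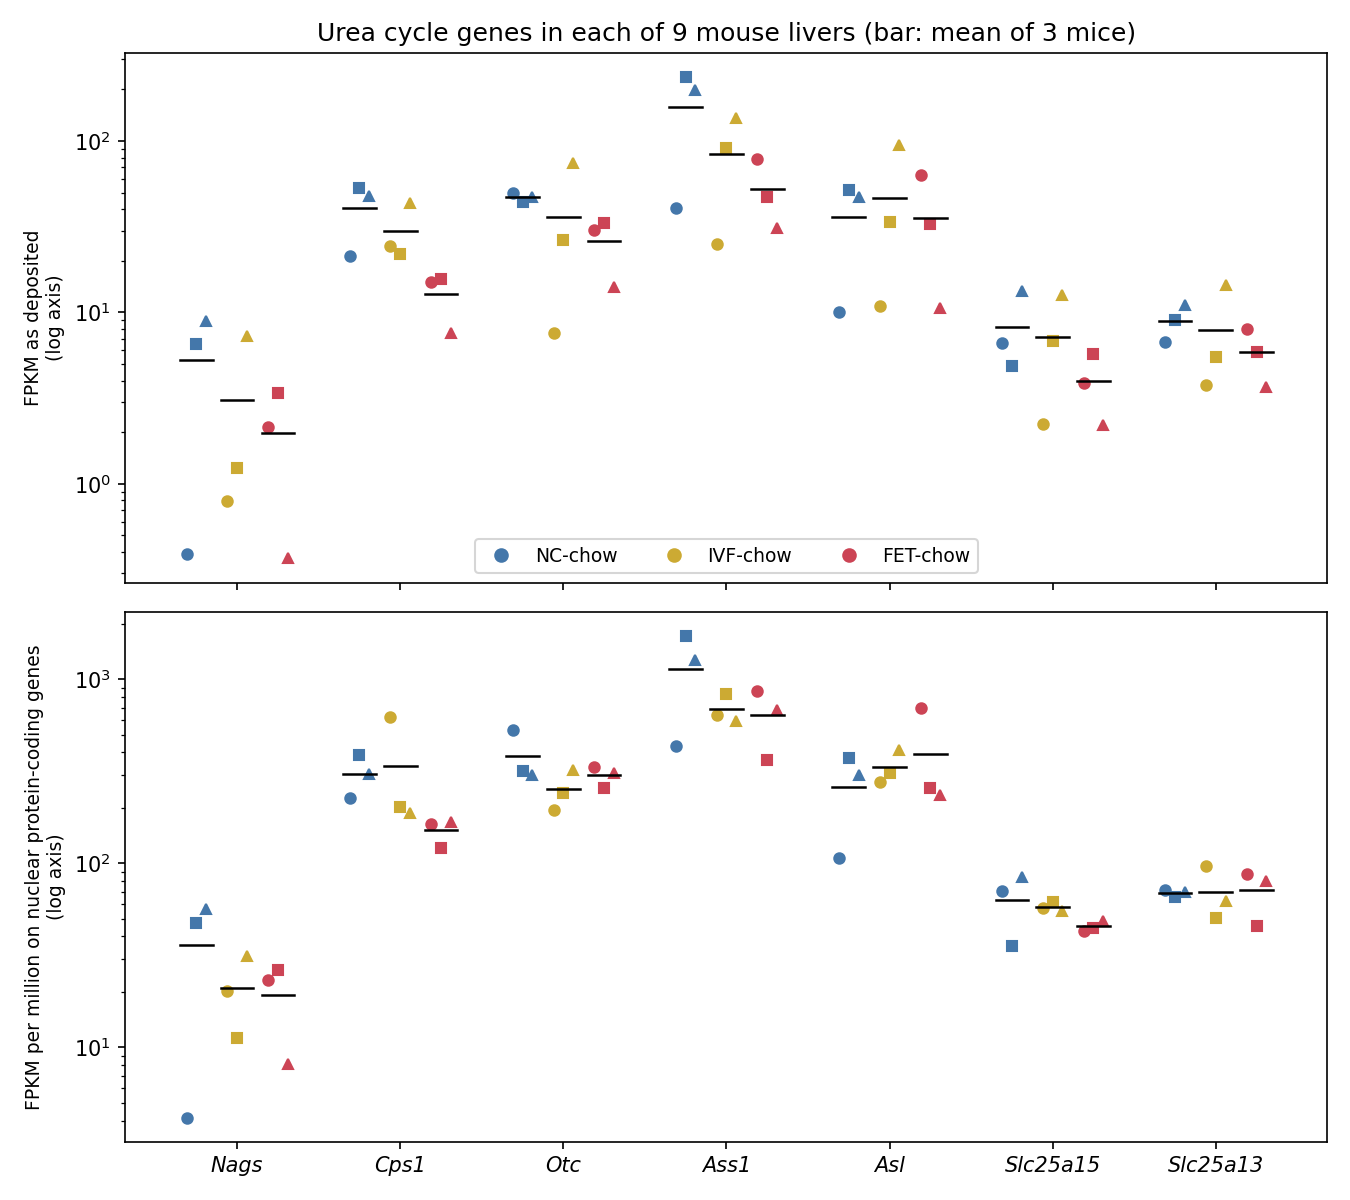
Level of each urea cycle gene in each of the 9 livers, as deposited FPKM (top) and rescaled to nuclear protein-coding genes (bottom), both on log axes. Colours are the 3 groups, circles, squares and triangles are the mice of a group in order of their number, and black bars are means of 3 mice. The 3 FET-chow values of Cps1 lie below the other 6 in both panels, while Asl overlaps between all groups.

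No member passed the test in any of the 3 comparisons. On log2(FPKM + 1), limma with Benjamini-Hochberg adjustment over 6755 genes called 0 of 7 members in FET-chow against NC-chow, where 0.237% of all genes passed, 0 of 7 in IVF-chow against NC-chow, where 0.0592% passed, and 0 of 7 in FET-chow against IVF-chow, where 0.0888% passed. At an unadjusted p under 0.05 the counts were also 0 of 7 in each, against 12.02%, 4.07% and 4.01% of all genes tested. With calls this rare over all genes, a count of 0 among 7 genes does not set the members apart. In the fits under other settings 6 such unadjusted values appeared, 5 for Cps1 and 1 for Nags, with adjusted p from 0.270 to 0.520. The 95% intervals of the differences were wide. In FET-chow against NC-chow their lower limits lay between -3.53 and -2.13 and their upper limits between 0.36 and 2.06 on the log2 scale, so that for most members they leave more room for lower than for higher levels.

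Cps1, which carries out the first committed step, was the member with the lowest log2 fold change in FET-chow mice when all mice were kept. It measured 21.2, 53.3 and 47.9 FPKM in NC-chow mice 1, 5 and 6. In IVF-chow mice 2, 3 and 4 it measured 24.5, 22.0 and 43.4 FPKM, and in FET-chow mice 2, 3 and 4 it measured 15.0, 15.7 and 7.60 FPKM. All 3 FET-chow mice were thus below the other 6, which held for 1 of 7 members and for 1.82% of all genes tested. The mean was 12.8 ± 4.49 FPKM (SD, n = 3) in FET-chow against 40.8 ± 17.2 in NC-chow mice, 3.196 times lower, and against 30.0 ± 11.7 in IVF-chow mice, 2.35 times lower. In limma the log2 fold change against NC-chow was -1.56 (SE 0.95, 95% interval -3.48 to 0.36, adjusted p 0.523), and against IVF-chow -1.17 (interval -3.09 to 0.75, adjusted p 1), so neither passed. Without NC-chow mice 5 and 6 the first was -0.75, and Otc was then lower at -1.01. Without NC-chow mouse 1 Ass1, at -2.13 against NC-chow, was lower than Cps1 at -1.97.

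After rescaling, Cps1 was still lowest in FET-chow mice, while the mean of IVF-chow mice (338) was then above that of NC-chow mice (306). Rescaled FPKM was 226, 386 and 306 in NC-chow mice, 626, 202 and 188 in IVF-chow mice and 164, 122 and 167 in FET-chow mice. The FET-chow mice again lay below the other 6, as 3.7% of all genes did, though IVF-chow mouse 4 exceeded the highest of them by little. The log2 fold change against NC-chow was -0.99 (interval -2.06 to 0.07, adjusted p 0.334 in limma). IVF-chow mouse 2 stood out in the other direction, with Cps1 at 32.8% of the summed FPKM of the 7 genes, where the other 8 mice had 7.44% to 15.7%. That library also had the largest share on the ribosomal entries, 61.9%, and the part of that share in the Cps1 value was not tested.

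Otc, the X-linked enzyme that forms citrulline, was the other member whose FET-chow mice all lay below the NC-chow mice. It measured 49.9, 43.9 and 47.1 FPKM in NC-chow mice, the narrowest spread of any member in that group relative to its mean. In FET-chow mice it measured 30.4, 33.3 and 14.1 FPKM. IVF-chow mice spread across both, with 7.59, 26.4 and 74.2 FPKM. Such a separation of FET-chow below NC-chow was found for 2 of 7 members (28.6%) and for 17.1% of all genes, and 2 of 7 is too few to set the members apart from it. The log2 fold change of Otc was -0.92 (interval -2.95 to 1.11, adjusted p 0.764 in limma), and -0.55 without FET-chow mouse 4. After rescaling the separation was gone: NC-chow mice had 531, 318 and 301 and FET-chow mice 333, 257 and 310, with a log2 fold change of -0.31. Rescaled FPKM then left Cps1 alone below every NC-chow mouse, 1 of 7 members (14.3%) against 11.5% of all genes.

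Nags, which makes the activator of Cps1, varied the most between mice. NC-chow mice had 0.39, 6.51 and 8.88 FPKM, IVF-chow mice 0.79, 1.24 and 7.24 and FET-chow mice 2.13, 3.40 and 0.37. The highest value was 24.2 times the lowest, against 3.93 to 9.77 times for the other members. The groups overlapped in every comparison. Its log2 fold change was -0.82 in FET-chow against NC-chow (interval -2.24 to 0.61) and -0.55 in IVF-chow against NC-chow (interval -1.97 to 0.88). Without NC-chow mice 5 and 6, whose sheet numbers stand apart from those of the other 7 mice, the first of these turned to 0.94. Single mice also moved it, to -1.70 without NC-chow mouse 1, -0.28 without NC-chow mouse 6, -0.48 without NC-chow mouse 5 and -0.34 without FET-chow mouse 4, and it was -0.41 after rescaling. The second ran from -1.42 without NC-chow mouse 1 and -1.23 without IVF-chow mouse 4 to -0.0089 without NC-chow mouse 6. It turned to 1.21 without NC-chow mice 5 and 6. When NC-chow mice 5 and 6 are both left out, NC-chow mouse 1 is alone in its group and is assumed to vary like the mice of the other groups.

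Among the cytosolic enzymes, Ass1 was the more abundant in each liver. It measured 40.5, 236 and 198 FPKM in NC-chow mice, 25.0, 91.3 and 136 in IVF-chow mice and 78.6, 47.2 and 31.0 in FET-chow mice. NC-chow mice 5 and 6 were the highest of all 9, while NC-chow mouse 1 lay within the range of the FET-chow mice. The log2 fold change in FET-chow against NC-chow was -1.33 (interval -3.53 to 0.86, adjusted p 0.666 in limma), and 0.26 without NC-chow mice 5 and 6. It was -2.13 without NC-chow mouse 1 and -0.87 without NC-chow mouse 5. Rescaled FPKM of Ass1 was 432, 1706 and 1267 in NC-chow mice, 637, 835 and 591 in IVF-chow mice and 861, 365 and 683 in FET-chow mice, with a log2 fold change of -0.71 (interval -1.89 to 0.47) for FET-chow against NC-chow.

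In IVF-chow against NC-chow the lowest values were those of Otc and Ass1, at -0.88 (interval -2.91 to 1.155) and -0.86 (interval -3.05 to 1.34) on the log2 scale, with a limma adjusted p of 1 for both. On deposited FPKM 0 of 7 members had every IVF-chow mouse below every NC-chow mouse, where 5.46% of all genes did. After rescaling it was again 0 of 7 members, against 11.3% of all genes. For Otc the rescaled values were 194, 242 and 322 in IVF-chow mice against 301 to 531 in NC-chow mice, a log2 fold change of -0.58 (interval -1.33 to 0.17). Single mice weighed heavily on deposited FPKM. Without IVF-chow mouse 2 the values of Otc and Ass1 were -0.08 and -0.15 and that of Cps1, at -0.28, was the lowest. Without IVF-chow mouse 4 Otc was at -1.64, and without NC-chow mouse 1 Ass1 was at -1.66. Without NC-chow mice 5 and 6 Ass1 turned to 0.73, while Otc was at -0.96.

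Asl, which releases arginine and fumarate, had the log2 fold change nearest to 0 in both comparisons with NC-chow on deposited FPKM when all mice were kept. NC-chow mice had 10.04, 51.6 and 47.0 FPKM, IVF-chow mice 10.9, 33.9 and 95.1 and FET-chow mice 63.4, 32.9 and 10.6. Each group thus held 1 mouse at 10.04 to 10.9 FPKM and all groups overlapped. The log2 fold change was -0.05 in FET-chow against NC-chow (interval -2.15 to 2.06) and 0.17 in IVF-chow against NC-chow (interval -1.93 to 2.27). After rescaling these were 0.59 (interval -0.65 to 1.84) and 0.52 (interval -0.73 to 1.77), so the sign of the first turned with the scaling and neither passed. Leaving out 1 mouse also turned both on deposited FPKM. The first was 0.63 without FET-chow mouse 4 and -0.77 without NC-chow mouse 1. The second was 0.93 without IVF-chow mouse 2 and -0.58 without IVF-chow mouse 4.

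The carriers were low in every liver. Slc25a15, the ornithine carrier, measured 6.58, 4.90 and 13.2 FPKM in NC-chow mice, 2.23, 6.77 and 12.6 in IVF-chow mice and 3.90, 5.76 and 2.22 in FET-chow mice. Rescaled, it was 56.9, 61.9 and 54.9 in IVF-chow and 42.6, 44.5 and 48.8 in FET-chow mice, which did not overlap, while NC-chow mice ran from 35.4 to 84.6 across both. Its rescaled log2 fold change in FET-chow against IVF-chow was -0.35 (interval -1.23 to 0.53, adjusted p 0.782 in limma). Against NC-chow it was -0.86 (interval -2.40 to 0.67) in FET-chow mice on deposited FPKM. Cps1 and Slc25a15 were the 2 of 7 members (28.6%) with every FET-chow mouse below every IVF-chow mouse after rescaling, against 6.01% of all genes. On deposited FPKM this held for Cps1 alone, 1 of 7 members against 2.56% of all genes.

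Slc25a13, the aspartate and glutamate carrier, had the narrowest range over the 9 mice. It measured 6.68, 9.04 and 10.97 FPKM in NC-chow mice, 3.77, 5.51 and 14.3 in IVF-chow mice and 8.004, 5.88 and 3.65 in FET-chow mice. Its highest value was 3.93 times its lowest, the smallest such ratio of the 7 genes. The log2 fold change in FET-chow against NC-chow was -0.56 (interval -2.13 to 1.02) on deposited FPKM. The rescaled value was -0.01 (interval -0.88 to 0.87), and the groups overlapped in every comparison. A close relative of each carrier was scarcely detected. Slc25a12, the other aspartate and glutamate carrier, reached 0.85 FPKM at most, and Slc25a2, another ornithine carrier, 0.45 FPKM.

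**Figure D2:**
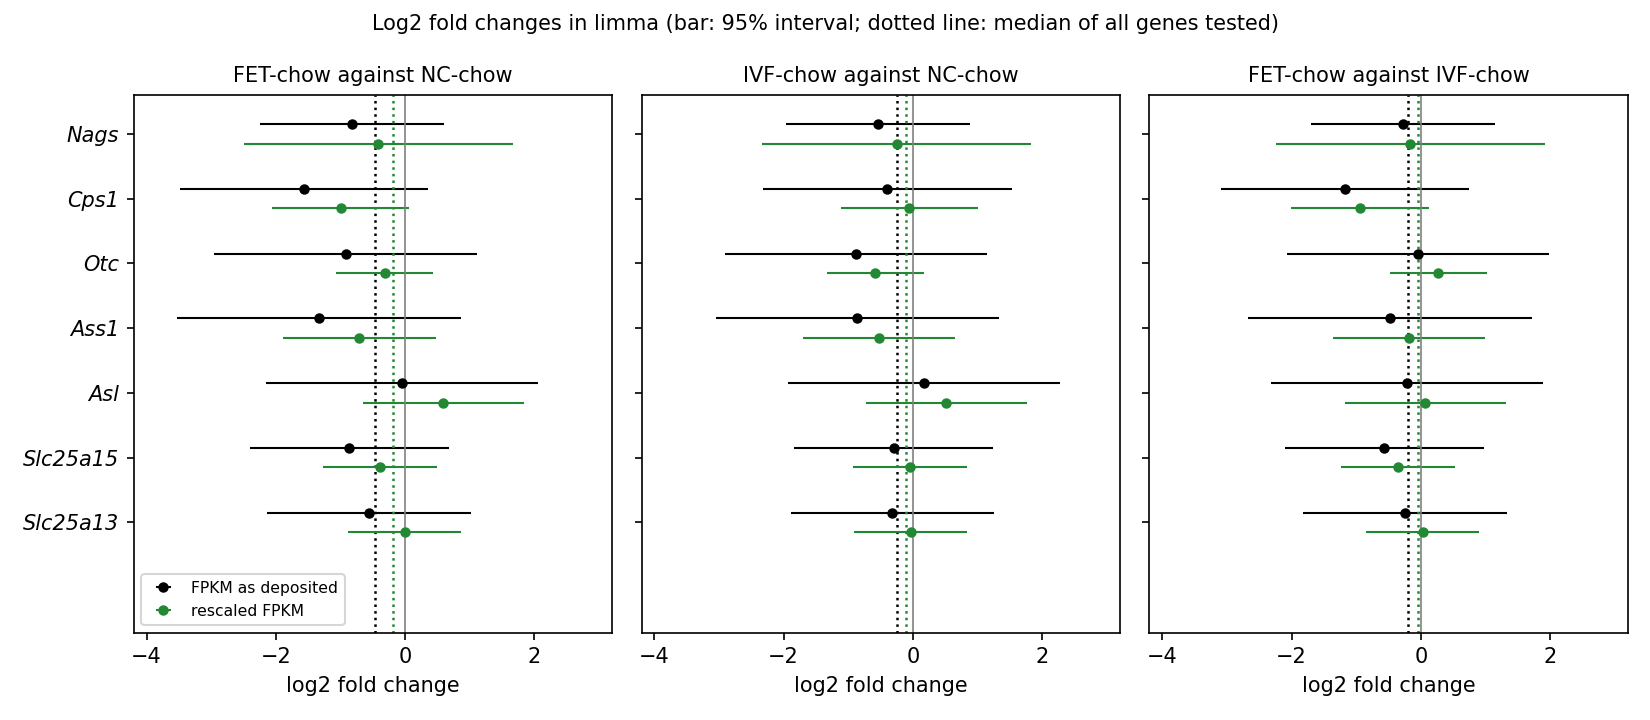
Log2 fold change of each urea cycle gene in the 3 comparisons, on deposited FPKM (black) and on rescaled FPKM (green). Points are limma estimates, horizontal bars are 95% intervals, the grey line marks no difference and dotted lines are medians over all genes tested. Every interval drawn includes 0.

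As a set the members leaned the way most genes leaned. In FET-chow against NC-chow all 7 log2 fold changes were negative with a median of -0.86, where 74.3% of all genes were negative with a median of -0.46. Without NC-chow mice 5 and 6 the members' median was -0.22, without NC-chow mouse 6 alone -0.50 and without FET-chow mouse 4 -0.55. In IVF-chow against NC-chow 6 of 7 were negative with a median of -0.39, against 68.8% and -0.25 over all genes. Without IVF-chow mouse 2 this median was -0.08 and without NC-chow mouse 6 -0.17, while without NC-chow mouse 1 or IVF-chow mouse 4 it was -0.80. It turned to 0.42 without NC-chow mice 5 and 6 and to 0.038 with median-ratio scaling. In FET-chow against IVF-chow 7 of 7 were negative with a median of -0.27, against 65.4% and -0.20. This median turned to 0.25 without IVF-chow mouse 4 and to 0.011 without FET-chow mouse 4, and was -0.98 without IVF-chow mouse 2, -0.59 without FET-chow mouse 2 and -0.45 without FET-chow mouse 3. The first and the last comparison share the FET-chow mice and the first 2 share the NC-chow mice, so they are not independent. After rescaling, the medians of the members were -0.39, -0.06 and -0.16, and those of all genes -0.18, -0.11 and -0.05. Asl was then positive in all 3 comparisons, and Otc and Slc25a13 in the last.

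Mice of the same group differed widely. Each gene was set to 0 at its mean over the 9 mice on the log2 scale, and the median over the 7 genes was taken per mouse. On FPKM this median was 0.75 and 0.98 in NC-chow mice 5 and 6 and 1.05 in IVF-chow mouse 4. It was -1.03 in IVF-chow mouse 2 and -1.24 in FET-chow mouse 4, and lay between -0.16 and 0.04 in the other 4 mice. All 7 members were above their own mean in NC-chow mouse 6 and IVF-chow mouse 4, and none was in FET-chow mouse 4. After rescaling the members were split within each mouse, with 1 to 6 of 7 above their own mean. The highest and lowest mice thus came from all 3 groups. The range over mice was 2.29 for the members and 1.65 for all genes tested, and after rescaling 0.65 and 0.31.

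**Figure D3:**
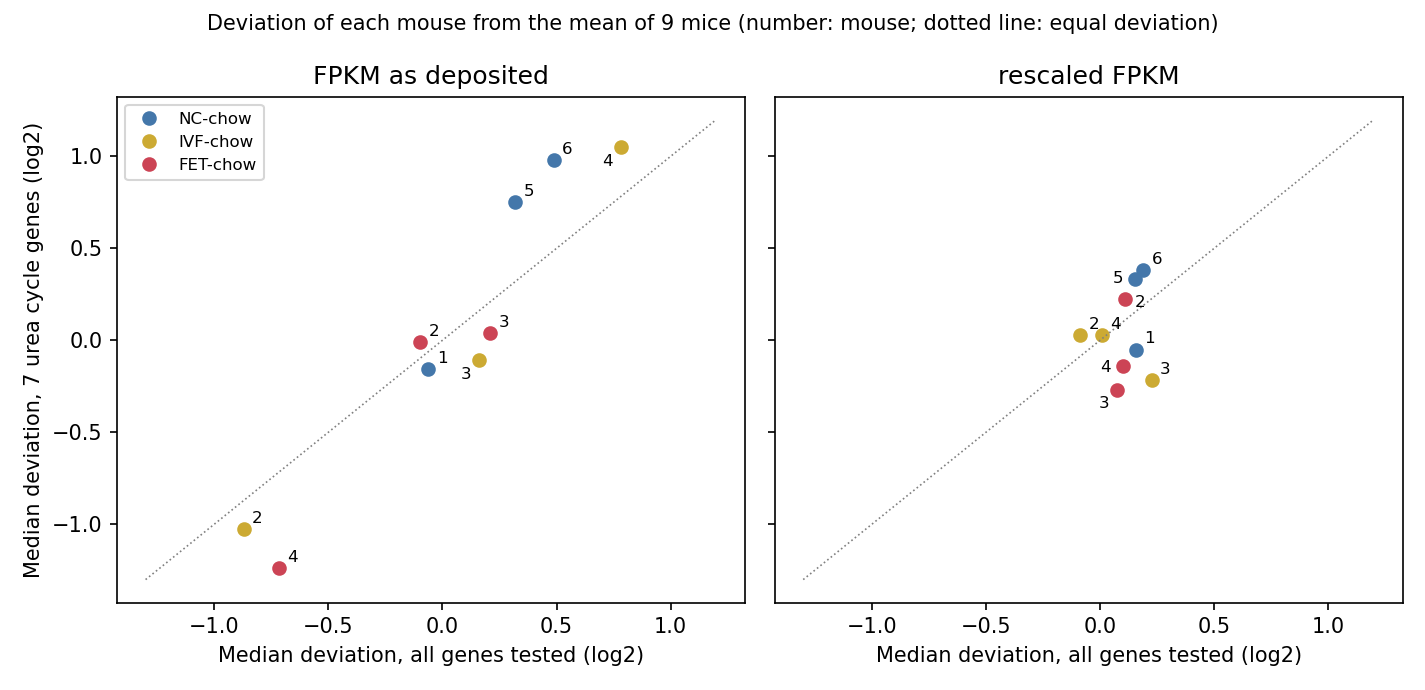
Median log2 deviation of each mouse from the mean of the 9 mice, for all genes tested (horizontal) and for the 7 urea cycle genes (vertical), on deposited FPKM (left) and rescaled FPKM (right). Points are mice, labelled with their number and coloured by group, and the dotted line marks equal deviation. On FPKM the members spread from -1.24 to 1.05 along with all genes, and after rescaling NC-chow mice 5 and 6 are highest at 0.33 and 0.38.

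In sum the 7 genes made up 0.144%, 0.293% and 0.239% of the nuclear protein-coding FPKM in NC-chow mice 1, 5 and 6. The IVF-chow mice were close to each other at 0.191%, 0.171% and 0.166%. FET-chow mice had 0.221%, 0.112% and 0.153%. NC-chow mice 5 and 6 were the highest of all and NC-chow mouse 1 was lower than all IVF-chow mice, so the groups overlapped.

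The makeup of the set does not depend on the scaling, since a ratio of 2 genes in 1 mouse is free of it. Asl took 7.42%, 12.7% and 12.6% of the summed FPKM of the 7 genes in NC-chow mice, 14.6%, 18.1% and 24.8% in IVF-chow mice and 31.5%, 22.8% and 15.2% in FET-chow mice. Every mouse conceived by IVF, with or without freezing, thus had a larger Asl share than every NC-chow mouse. This held for the share of 1 of 7 members, and for 2.28% of all genes tested when each was divided by the same sum. Cps1 took 12.8% to 15.7% in NC-chow, 11.3% to 32.8% in IVF-chow and 7.44% to 10.9% in FET-chow mice, the last below the other 6, as were 1.54% of all genes relative to the same sum. A single member in each pattern is too few to set the members apart. Nags, Otc, Ass1 and the carriers overlapped between NC-chow mice and both other groups in their shares. FPKM times transcript length in place of FPKM gave Asl a mean of 10.07% of the set in NC-chow, 16.6% in IVF-chow and 21.6% in FET-chow mice. The separation was then lost, since IVF-chow mouse 2 had 10.6%, below the 12.3% and 11.9% of NC-chow mice 5 and 6.

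**Figure D4:**
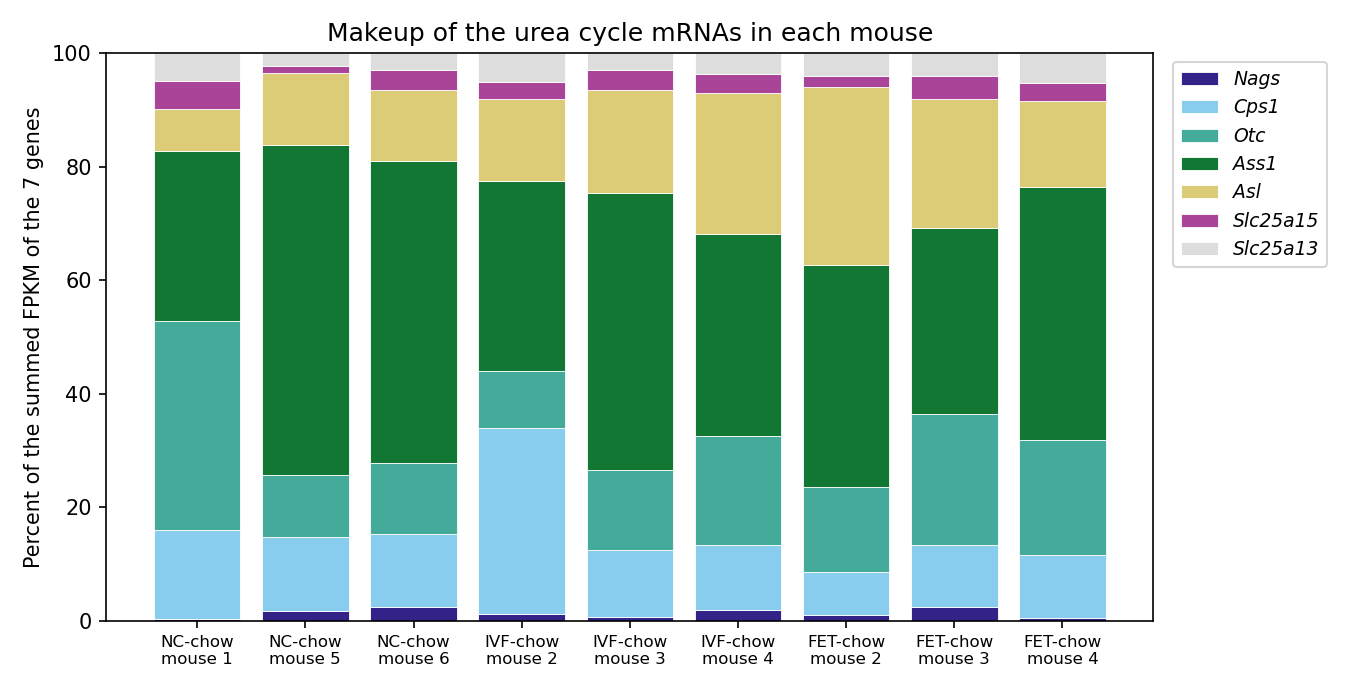
Share of each urea cycle gene in the summed FPKM of the 7 genes, in percent, for each mouse. Stacked bars add up to the whole set, with colours for the genes and bars ordered by group. The Asl segment is between 7.42% and 12.7% in the NC-chow mice and between 14.6% and 31.5% in the other 6, and IVF-chow mouse 2 has the widest Cps1 segment at 32.8%.

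The ratio of Ass1 to Asl, the consecutive cytosolic enzymes, was 4.04, 4.57 and 4.22 in NC-chow mice. IVF-chow mice had 2.30, 2.70 and 1.43 and FET-chow mice 1.24, 1.43 and 2.93. The means were 4.28 ± 0.271, 2.14 ± 0.646 and 1.87 ± 0.923 (SD, n = 3 each), and the NC-chow mice did not overlap the others. This ratio was picked after its values were seen and carries no test. It was the 1 of 21 pairs of members (4.76%) that had NC-chow mice apart from all 6 others. So did 6.04% of 8801110 pairs, taken from the 4196 nuclear protein-coding genes past the filter that were above 0 in all mice. The members' share is thus near the background.

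The single comparisons gave the following counts of member ratios that did not overlap. Between FET-chow and NC-chow mice it was 3 of 21 (14.3%), against 21.4% of all pairs of the same nuclear protein-coding genes. Cps1 to Asl and Cps1 to Slc25a13 were 2 of them and were lower in FET-chow mice, the second at 1.87, 2.67 and 2.08 against 3.18, 5.90 and 4.36 in NC-chow mice. Between IVF-chow and NC-chow mice 2 of 21 (9.52%) did not overlap, against 16% of all pairs. FET-chow and IVF-chow ratios also differed without overlap in 2 of 21, against 12.9%, and both had Cps1 in them, with Otc and Slc25a13 as the partners.

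**Figure D5:**
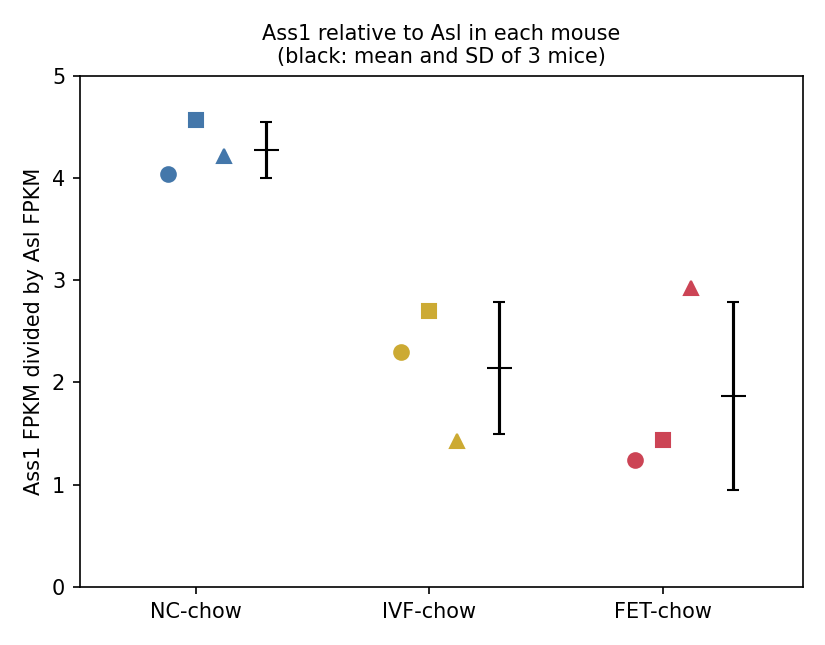
Ass1 FPKM divided by Asl FPKM in each mouse, by group, with the mean and SD of 3 mice in black beside the points. Circles, squares and triangles are the mice of a group in order of their number, and the vertical axis starts at 0. All NC-chow mice are at 4.04 or above and the other 6 at 2.93 or below.

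The counts of the lists that follow are to be read against all genes tested in FET-chow against NC-chow, of which 0.237% passed and 74.3% were negative with a median of -0.46. Around the cycle, genes that feed it with nitrogen were described as a list of 14, of which 13 were tested. In FET-chow against NC-chow 1 of 13 passed and was lower, none was higher, and 13 of 13 log2 fold changes were negative with a median of -0.94. The gene that passed was Got1, the cytosolic aspartate aminotransferase, which is also on the list of 7 genes that recycle aspartate and fumarate (6 tested, 1 lower, median -0.89). Got1 was at 2.605, 20.8 and 21.8 FPKM in NC-chow mice, 1.68, 9.52 and 16.4 in IVF-chow mice, and listed at 0, 0.71 and 0 in FET-chow mice. On log2(FPKM + 1) the difference was -3.34 (SE 0.76, adjusted p 0.0320 in limma). This call held in 4 of 16 alternative settings, whose adjusted p ran from 0.00951 to 1. Leaving out NC-chow mouse 5 or 6 gave adjusted p values of 0.181 and 0.205, IVF-chow mouse 2 or 4 gave 0.0734 and 0.0673, and FET-chow mouse 3 or 4 gave 0.1502 and 0.1415. The difference in these 6 fits was -3.60 to -2.89. On rescaled FPKM it was -5.51 with an adjusted p of 0.0515, and without NC-chow mice 5 and 6 it was -1.59 with an adjusted p of 1.

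The other named genes of these lists did not pass. Oat, which turns ornithine into glutamate semialdehyde, differed by -2.61 on the log2 scale (limma adjusted p 0.334) in FET-chow against NC-chow, with 188, 146 and 243 FPKM in NC-chow and 59.6, 41.3 and 10.6 in FET-chow mice. Tat, the tyrosine aminotransferase, had -2.08 (adjusted p 0.426), Got2, the mitochondrial partner of Got1, -0.93 and Mdh1, the cytosolic malate dehydrogenase, -1.03. Glul, which fixes the ammonia that escapes the cycle in hepatocytes around the central vein, was at 69.4, 89.5 and 112 FPKM in NC-chow, 27.7, 67.2 and 187 in IVF-chow and 38.5, 89.6 and 35.1 in FET-chow mice, which overlapped.

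For transport of amino acids, ammonia and urea, 8 of 13 genes were tested, 0 passed and 7 were negative with a median of -1.05. Slc25a22, a mitochondrial glutamate carrier, had -1.40, Slc38a4, an amino acid transporter, -1.53, and Aqp9, a channel that also passes urea, -1.13. Among other users of arginine and ornithine, 4 of 7 were tested, 0 passed and 3 were negative with a median of -0.29. Agmat had -0.57 and Azin1, an inhibitor of antizyme, 0.23. Among 9 regulators 8 were tested, 0 passed and 7 were negative with a median of -0.83. Klf15, a transcription factor of amino acid breakdown, came nearest with -3.12 (adjusted p 0.0619 in limma), at 9.55, 26.2 and 26.6 FPKM in NC-chow mice against 0.96, 0.59 and 2.86 in FET-chow mice. Cebpa had -1.29 and Cebpb -0.90. No gene of these lists passed in IVF-chow against NC-chow or in FET-chow against IVF-chow. The list medians are on deposited FPKM. Rescaled sums of transport (NC-chow 1084 to 1356, FET-chow 897 to 1455) and regulators (1569 to 2096, 1186 to 2141) overlapped. Those of nitrogen supply (4724 to 5097, 1691 to 2811) and of aspartate and fumarate recycling (533 to 682, 455 to 520) did not. Nor did other users of arginine and ornithine (1265 to 2215, 497 to 971).

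Markers were read to see which cells the RNA came from. Of the 10 hepatocyte markers 9 were matched by symbol, while the symbol Tf was not. All 9 were above 0 in every mouse. Their summed rescaled FPKM was 112585 to 139535 in NC-chow, 91059 to 135928 in IVF-chow and 101657 to 121042 in FET-chow mice, so the label of liver was met. In FET-chow against NC-chow 0 of the 9 passed and 8 were negative with a median of -1.23, lower than the median of the urea cycle genes. This median and those of the other markers are on deposited FPKM, which also moves with the library shares given above. In bulk tissue fewer cells of a type and less RNA per cell cannot be told apart. Of the 6 portal-side hepatocyte markers tested, 0 passed and 6 were negative in FET-chow against NC-chow with a median of -1.52, and of 6 central-side markers 0 passed and 6 were negative with a median of -1.06, where all genes had -0.46. The summed rescaled FPKM of the portal-side markers was 1751 to 3092 in NC-chow, 1025 to 1778 in IVF-chow and 729 to 2238 in FET-chow mice, which overlapped. That of the central-side markers was 5282 to 6666, 3989 to 5645 and 3002 to 4229, so that FET-chow mice lay below NC-chow mice. After rescaling, 11.5% of all single genes tested also had every FET-chow mouse below every NC-chow mouse. No such share was computed for sums of genes. Summed stellate cell markers were 145 to 228 in NC-chow, 255 to 501 in IVF-chow and 468 to 743 in FET-chow mice. Ecm1 alone made up 63.7% to 95.4% of this sum in FET-chow mice, and without it the sums were 67.05 to 122, 134 to 253 and 34.2 to 238, so FET-chow and NC-chow mice overlapped. Of the 4 stellate cell markers tested 0 passed and 2 were negative in FET-chow against NC-chow, with a median of -0.16. Kupffer cell markers were 177 to 240, 157 to 324 and 238 to 973, and endothelial markers 74.4 to 92.7, 36.1 to 91.6 and 62.5 to 129. Cholangiocyte markers were 68.2 to 123, 39.5 to 44.8 and 36.6 to 106, erythroid markers 2425 to 9060, 1686 to 2253 and 3908 to 6292, and lymphocyte and neutrophil markers 7.78 to 35.1, 6.68 to 54.9 and 0.84 to 9.60. The part of these in the values of the urea cycle genes was not tested. Kidney tubule markers, the kidney being another organ rich in Ass1 and Asl, summed to at most 1.58 with Umod, Slc12a1 and Kap at 0 in all mice, and exocrine pancreas markers to at most 11.6 with Amy2a5 at 0.

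Among the 5 genes whose profile over the 9 mice lay nearest to the mean profile of the members were Ndufv3 and Cox5b, which belong to the respiratory chain, Ndrg2, and Uox, the urate oxidase. Likeness was the root mean square difference of rescaled log2 values after each gene's mean was set to 0, over 1049 genes whose mean FPKM reached 10. It was 0.228 for Ndufv3, 0.249 for Cox5b and 0.251 for Ndrg2 and Uox, where the median gene had 0.656. Only 4 of the 7 members reached that mean and were compared, and Nags and both carriers were not. Of these 4, Ass1 was nearest at 0.428, followed by Asl at 0.544, Otc at 0.547 and Cps1 at 0.558. Ass1 was thus 133rd in that order. Averaging the 7 members flattens their profile, and the measure does not scale the size of the swings. A gene that varies little can therefore lie nearer to it than a member that varies much. The order thus cannot decide whether the members resemble each other, or whether the genes named here follow them. The 9 mice share libraries across all genes, and this order is a description without a test.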

How the data were processed

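Liver RNA of 9 mice in 3 groups was extracted with TRIzol and sequenced on an Illumina Nova6000 system. The authors deposited FPKM for 55335 genes, which they computed from trimmed reads mapped to the genome. The submitters' processing notes name FastQC 0.11.5, STAR 2.5.3a, StringTie 1.3.1c and DESeq2 1.16.1 without their roles, and the build, annotation and strandedness are not given in the sources used here. Symbols and positions came from GENCODE vM21 (55154 identifiers matched, 181 did not).

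The table holds no counts. Depth was estimated from steps of up to 8 fragments in low FPKM values, within 2%, which 34.7% to 44.2% of low values met against 8.75% to 15.3% by the width of the steps. The estimate came within 5% of the true depth in 3 of 3 simulated libraries. Such depths cover counting error only. On simulated data the limma fit recovered 64.9% of genes changed by 3 on the log2 scale and 98.8% of those changed by 6. Changes between 0 and 3 were not simulated, so recovery at the sizes seen for the members was not measured.

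Genes were tested on log2(FPKM + 1) in limma 3.58.1 (R 4.3.3), with 1 model over the 3 groups, variance moderated with a trend on the mean, two-sided p-values and Benjamini-Hochberg adjustment over 6755 genes, called under 0.05. Changes of low genes are understated on this scale. Named genes are the 7 members, per list the 3 tested genes whose FET-chow to NC-chow difference was largest, those past the threshold, Slc25a12 and Glul, and the nearest profiles. Slc25a2 was named beside them. Of the genes this rule gives, 3 are not reported here and were left out of every sum, count and median over the members. The members, lists and tests were chosen with earlier results of these data known. Alternatives were a pseudocount of 0.1, no filter or a mean FPKM of 10, 3 scalings, a fit of only the groups compared, a replicate block, gene length in the shares, and leaving out mice.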

Additional observations from a re-analysis of the deposited data

How the results depend on the processing

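No urea cycle gene was called under any alternative. Of 355 alternative log2 fold changes 131 equal the reported value by construction, since only the error or the genes tested differ, and 187 of the other 224 kept their sign. The lowest adjusted p was 0.270, for Cps1 in FET-chow against NC-chow (-1.56, without IVF-chow mouse 2, limma). Cps1 had an unadjusted p of 0.0472 with median-ratio scaling, 0.0288 without the filter, 0.02798 with only the 2 groups compared and 0.0273 without IVF-chow mouse 2 in that comparison, and 0.03996 in FET-chow against IVF-chow with median-ratio scaling. Nags had 0.0407 in FET-chow against NC-chow without NC-chow mouse 1 (-1.70). Depth limits the value of Nags, with 2.2 estimated fragments in FET-chow mouse 4.

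The remaining 37 turned their sign, and the cause was not tested. With median-ratio scaling these were Asl (0.44) in FET-chow against NC-chow, Otc (0.039) in FET-chow against IVF-chow, and Cps1 (0.047), Slc25a15 (0.038) and Slc25a13 (0.063) in IVF-chow against NC-chow, where the members' median turned to 0.038. With rescaling they were Asl (0.59) in FET-chow against NC-chow and Otc (0.27), Asl (0.073) and Slc25a13 (0.028) in FET-chow against IVF-chow. With quantile normalization they were Asl (0.38) in the first, Slc25a15 (0.033) and Slc25a13 (0.070) in IVF-chow against NC-chow and Otc (0.017) in FET-chow against IVF-chow. Without NC-chow mice 5 and 6 they were Nags (0.94), Ass1 (0.26) and Asl (1.41) in FET-chow against NC-chow. In IVF-chow against NC-chow they were then Nags (1.21), Cps1 (0.42), Ass1 (0.73) and Slc25a13 (0.025), and the members' median turned to 0.42.

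Leaving out 1 mouse at a time gave -0.77 to 0.63 for Asl in FET-chow against NC-chow, -1.70 to -0.28 for Nags, -1.14 to -0.55 for Otc, -2.13 to -0.87 for Ass1, -1.13 to -0.50 for Slc25a15 and -0.78 to -0.31 for Slc25a13. In IVF-chow against NC-chow it gave -1.42 to -0.0089 for Nags, -0.80 to -0.15 for Cps1, -0.58 to 0.93 for Asl, -0.78 to 0.26 for Slc25a15 and -0.80 to 0.038 for Slc25a13. In FET-chow against IVF-chow the members' median ran from -0.98 to 0.25, and turned without IVF-chow mouse 4 (0.25) or FET-chow mouse 4 (0.011). Single genes there ran from -0.69 to 0.41 (Nags), -0.84 to 0.72 (Otc), -1.18 to 0.023 (Ass1), -0.98 to 0.53 (Asl), -1.12 to -0.08 (Slc25a15) and -0.60 to 0.25 (Slc25a13). In IVF-chow against NC-chow Otc ran from -1.64 to -0.08 and Ass1 from -1.66 to -0.15. Cps1 stayed negative in FET-chow mice, from -1.97 to -1.25 against NC-chow (-0.75 without NC-chow mice 5 and 6, where the members' median was -0.22) and from -1.35 to -0.86 against IVF-chow.

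The mouse numbers 2, 3 and 4 occur in both the IVF-chow and the FET-chow group, but same-numbered mice did not deviate together (correlations -0.13, 0.02 and -0.26), so the numbers were not taken as pairs. With a replicate block 0 members were called and their median stayed at -0.27, while 2 genes in all were called in place of 6.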
